A study of Mus musculus with 12 samples.

Results

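The genes described are the ligands and receptors of the vascular endothelial growth factor (VEGF) and platelet-derived growth factor (PDGF) systems in cells sorted from mouse skin tumors. They are the ligands Vegfa, Vegfb, Vegfc, Pgf, Pdgfa and Pdgfb, the receptors Flt1 and Kdr, and the co-receptors Nrp1 and Nrp2. They were taken by name, with earlier results of these data known, and make up 10 of 53801 genes in the count tables. All 10 were found in both. The 12 libraries came from FVB mice with cutaneous squamous cell carcinoma and formed 4 groups of 3. The first were basal carcinoma cells (Rosa-YFP+ CD49f+ CD29+) positive for an mScarlet reporter of TGF-β signaling. The second were basal carcinoma cells of the same gate negative for that reporter. The third were tumor macrophages (CD45+ F4/80+) with the high-affinity IgE receptor chain FceRIa at their surface, and the fourth were such macrophages without it. The driver of the YFP allele, the way the tumors were raised and the ages of the mice were not given in the sources used here. Nothing in the labels says that replicates of a group came from separate animals, so p-values reflect only the spread among these samples, and that spread may be technical.

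VEGF-A is the main growth factor of blood vessel endothelium and signals through KDR (VEGFR-2), while FLT1 (VEGFR-1) binds VEGF-A, VEGF-B and placental growth factor and can act as a trap for them. Neuropilins bind VEGF family members and class 3 semaphorins and sit beside the signaling receptors. PDGF-A and PDGF-B signal through PDGFRA and PDGFRB on mesenchymal cells such as fibroblasts and pericytes. In skin tumors, carcinoma cells and macrophages are both known sources of such ligands.

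Promoter sequences are shown for the VEGF ligand and the co-receptors that the comparisons turn on. They are bases 5′ of the RefSeq start (GRCm38.p6), written 5′ to 3′ on the strand of the gene. The Vegfa stretch is chr17:46032378-46032627 (minus strand), the Nrp1 stretch chr8:128358823-128359072 (plus strand) and the Nrp2 stretch chr1:62703067-62703284 (plus strand). For Nrp2 the last 32 bases before the RefSeq start were left out because GENCODE M21 places them in an exon. Capitals mark matches, on either strand, to ACGTG (hypoxia-inducible factor core), CAGAC (SMAD-binding element), TGANTCA (AP-1), GAGGAA (PU.1 core) or GGGCGG (GC box).
Vegfa: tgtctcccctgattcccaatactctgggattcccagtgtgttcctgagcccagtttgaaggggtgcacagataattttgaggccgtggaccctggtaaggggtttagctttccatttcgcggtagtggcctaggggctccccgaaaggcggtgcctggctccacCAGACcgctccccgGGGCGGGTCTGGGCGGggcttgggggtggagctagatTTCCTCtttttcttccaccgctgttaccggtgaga
Nrp1: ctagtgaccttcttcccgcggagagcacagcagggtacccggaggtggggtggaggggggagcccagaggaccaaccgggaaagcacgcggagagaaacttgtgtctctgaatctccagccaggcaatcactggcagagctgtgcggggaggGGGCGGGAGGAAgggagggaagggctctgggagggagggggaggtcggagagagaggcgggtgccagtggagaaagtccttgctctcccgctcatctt
Nrp2: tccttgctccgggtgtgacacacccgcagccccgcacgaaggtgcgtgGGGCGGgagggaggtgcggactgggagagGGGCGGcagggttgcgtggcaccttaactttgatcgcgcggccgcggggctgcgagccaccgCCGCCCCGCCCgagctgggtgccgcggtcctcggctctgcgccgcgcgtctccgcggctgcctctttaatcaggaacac
The Vegfa stretch held 2 CAGAC and 2 GC box matches, overlapping one another in part, and 1 GAGGAA match. A second RefSeq start of Vegfa, with its window at chr17:46025164-46025413, is not printed. That window held 1 ACGTG, 1 CAGAC and 1 GC box match. The Nrp1 stretch held 1 GC box directly followed by 1 GAGGAA, and the Nrp2 stretch 4 GC boxes. Among 32851 promoter windows of 250 bases, ACGTG occurred in 16.6%, CAGAC in 42.2%, TGANTCA in 6.75%, GAGGAA in 23.3% and GGGCGG in 32.7%. A match is a description of the letters and not of binding. RefSeq windows were matched for 9 of the 10 genes, with none for Pdgfb.

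Total counts were 27951632 to 35088897 per carcinoma library and 33704786 to 40041144 per macrophage library, so that 3 counts correspond to 0.0749 to 0.1073 CPM (counts scaled to a fixed library size). The sum of 10 keratinocyte markers was 63800 to 76200 CPM in carcinoma libraries, and the sum of 12 leukocyte and macrophage markers was 17300 to 31700 CPM in macrophage libraries. The mRNA of Fcer1a, the chain used for the sort, was at 2, 7 and 1 counts in FceRIa-positive macrophage libraries, against 0, 4 and 3 counts in FceRIa-negative ones. At that depth the mRNA does not separate the groups, and it neither checks nor contradicts labels that rest on surface protein. In both cell types, libraries with the same replicate number deviated together from their group means, so each comparison is given unpaired and with the number as a block. Carcinoma replicates 1 and 3 were close to one another in each group (chi-square per degree of freedom 1.62 in reporter-positive and 2.97 in reporter-negative cells, against 43.1 to 90.6 for pairs with replicate 2), though further apart than sampling noise. Replicate 2 therefore carries most of the spread in those cells. Carcinoma numbers 1 and 3 also correlated across the groups (0.593 and 0.606), so pairing by number is not shown for them.

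**Figure D1:**
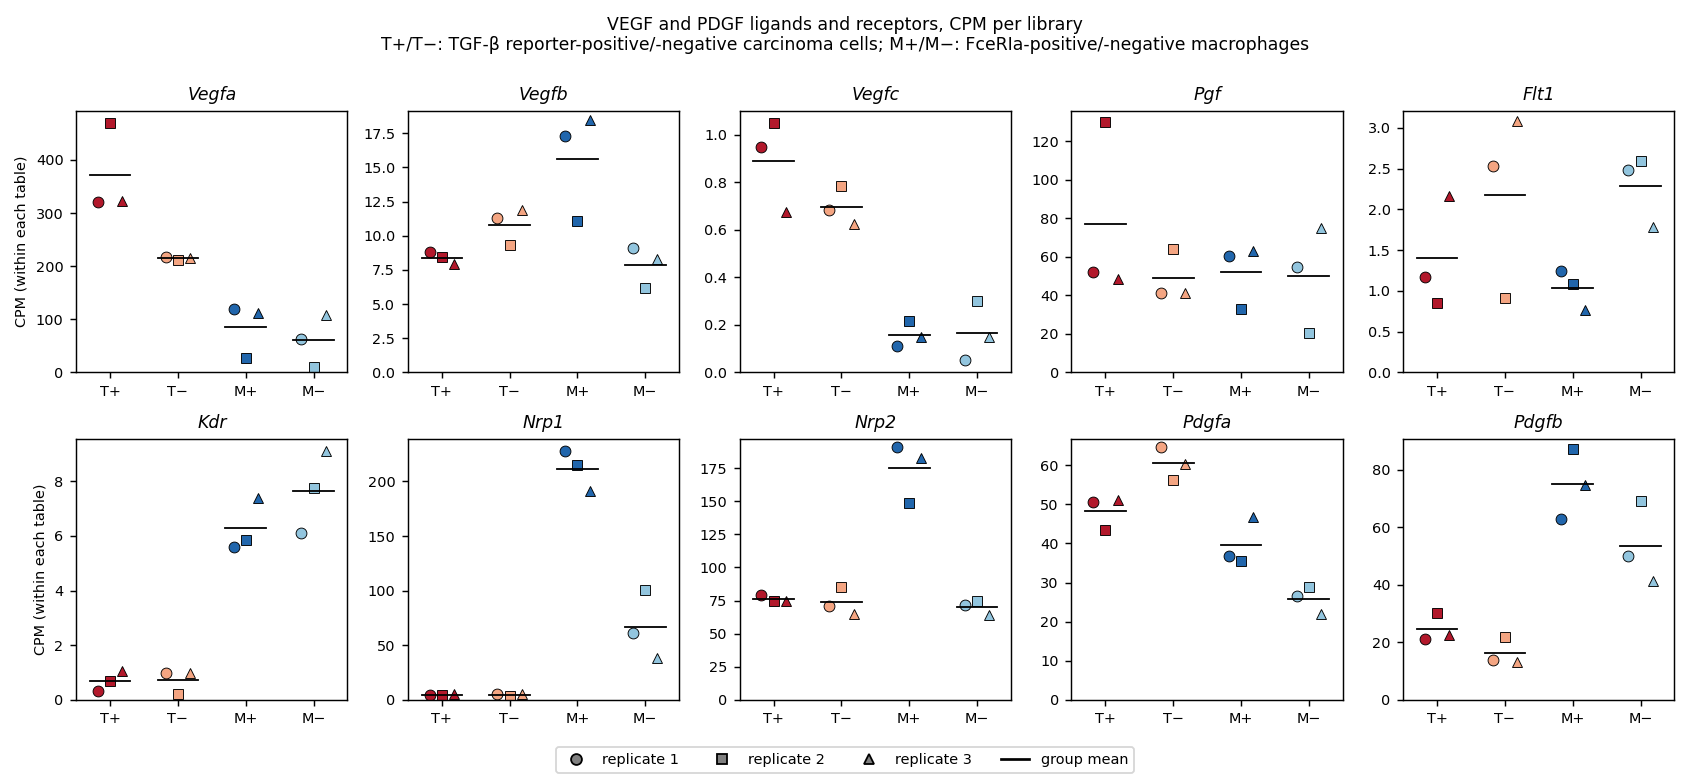
CPM of each gene (linear axes starting at 0) in every library, for reporter-positive (T+) and reporter-negative (T−) carcinoma cells and FceRIa-positive (M+) and FceRIa-negative (M−) macrophages. Marker shapes give the replicate number and lines the group mean. CPM was scaled within each table, so T is read against T and M against M. Nrp1 and Nrp2 lie higher in all 3 M+ libraries than in all 3 M− libraries, and Vegfa higher in all 3 T+ than in all 3 T− libraries.

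The comparison of reporter-positive with reporter-negative carcinoma cells asks which transcripts differ in cells that respond to TGF-β. Vegfa was the most abundant of the 10 genes per length in both groups and lay 1.73-fold higher in reporter-positive cells. Pdgfb was also higher and Pdgfa lower at every replicate number. The unpaired test called none of the 10 genes at an adjusted p under 0.05, when it called 0.809% of the 13604 genes tested. With the block it called 3 of 10, Vegfa and Pdgfb higher and Pdgfa lower, beside 18% of all genes, so that the share of genes called among the 10 is not far from the background. The median log2 difference of the 10 genes was 0.07, and that of all genes tested 0.003. At an unadjusted p under 0.05 the unpaired test passed 4 of the 10 genes and 2642 of all genes. In bulk samples, fewer cells of a type and less RNA per cell cannot be told apart.

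Among the ligands, Vegfa (ENSMUSG00000023951, chr17:46016993-46032369, minus strand) had 321, 469 and 323 CPM in reporter-positive replicates 1, 2 and 3, against 217, 211 and 216 CPM in reporter-negative ones. All 3 reporter-positive libraries lay above all 3 reporter-negative libraries, with replicate 2 the highest. Groups did not overlap, with the positive cells higher, in 14.6% of all genes tested, and of the 10 members in Vegfa alone. The means were 371 ± 85.0 CPM in reporter-positive and 215 ± 2.92 CPM in reporter-negative cells (SD, n = 3 each), and the log2 difference was 0.79 ± 0.16 (SE, edgeR adjusted p = 0.0769). With the block the Vegfa difference was 0.77 ± 0.12 (edgeR adjusted p = 0.0121). It stayed between 0.57 and 0.87 on the log2 scale, called each time, when any 1 number was left out of the blocked fit. Without number 2 that fit held only replicates 1 and 3, which were close to one another, so its call says little about separate samples. Unpaired, Vegfa was called without reporter-positive replicate 2 (log2 difference 0.58, edgeR adjusted p = 0.00984) and not with replicates 1 and 3 of each group summed (0.88, edgeR adjusted p = 0.681).

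Pgf, which encodes placental growth factor, a ligand of FLT1 (ENSMUSG00000004791, chr12:85166635-85177790, minus strand), had 51.8, 130 and 48.4 CPM in reporter-positive cells, against 41.4, 64.1 and 41.0 CPM in reporter-negative cells. Replicate 2 was the highest in both groups, and the groups overlapped. Its log2 difference was 0.66 ± 0.42 (SE, edgeR adjusted p = 0.459), and 0.54 ± 0.15 with the block (edgeR adjusted p = 0.0554). Without reporter-positive replicate 2 the unpaired difference was 0.03 (edgeR adjusted p = 0.943). With 1 number left out, the blocked fit called Pgf each time, at 0.64 without number 1, 0.276 without number 2 and 0.681 without number 3. The run without number 2 held only replicates 1 and 3, which were close to one another. Vegfb, another FLT1 ligand (ENSMUSG00000024962, chr19:6982473-6987651, minus strand), had 8.79, 8.43 and 7.96 CPM in reporter-positive cells, against 11.3, 9.33 and 11.9 CPM in reporter-negative cells. The groups did not overlap, but neither fit called the difference of -0.37 ± 0.12 (edgeR adjusted p = 0.18, and 0.0659 with the block). Vegfc, a ligand best known for lymphatic vessel growth (ENSMUSG00000031520, chr8:54077606-54187096, plus strand), was low, with 19 to 32 counts in reporter-positive libraries and 22 to 24 counts in reporter-negative ones. Its groups overlapped in CPM, and its log2 difference of 0.36 ± 0.26 was not called (edgeR adjusted p = 0.519).

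Of the PDGF ligands, Pdgfa (ENSMUSG00000025856, chr5:138976014-138997370, minus strand) had 50.5, 43.5 and 51.2 CPM in reporter-positive cells, against 64.7, 56.3 and 60.4 CPM in reporter-negative cells. All reporter-positive libraries lay below all reporter-negative libraries, as they did for Vegfb and for 13.6% of all genes. The log2 difference was -0.32 ± 0.09 unpaired (edgeR adjusted p = 0.126) and -0.32 ± 0.05 with the block (edgeR adjusted p = 0.0143), and without number 1 the blocked call was lost (edgeR adjusted p = 0.0634). Pdgfa shares 813 exon bases, 26.1% of its own, with the antisense gene 6330403L08Rik, which had 154 to 208 counts in reporter-positive and 231 to 245 counts in reporter-negative libraries. With the strand setting of the counting not given in the sources used here, reads of the shared stretch cannot be told apart. Pdgfb (ENSMUSG00000000489, chr15:79995874-80014977, minus strand) had 21.3, 30.1 and 22.7 CPM in reporter-positive cells, against 13.8, 21.7 and 13 CPM in reporter-negative cells. The groups overlapped, because replicate 2 was high in both, while the ratio within a number was 1.54, 1.39 and 1.75. Its log2 difference was 0.61 ± 0.23 unpaired (edgeR adjusted p = 0.219) and 0.63 ± 0.08 with the block (edgeR adjusted p = 0.00876).

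The receptors were near the low end in carcinoma cells. Flt1 (ENSMUSG00000029648, chr5:147561604-147726011, minus strand) had 37, 26 and 61 counts in reporter-positive libraries, against 89, 28 and 109 counts in reporter-negative ones. Kdr (ENSMUSG00000062960, chr5:75932827-75978458, minus strand) had 10, 21 and 30 counts in reporter-positive libraries, against 35, 7 and 34 counts in reporter-negative ones. Both genes overlapped between the groups, and neither fit called them (Flt1 log2 difference -0.65 ± 0.53, edgeR adjusted p = 0.568; Kdr -0.10 ± 0.63, edgeR adjusted p = 0.954). The sum of 14 endothelial markers, a cell type in which both receptors are high, was 31.8 to 42.2 CPM in reporter-positive and 31.0 to 41.1 CPM in reporter-negative libraries, and its part in the receptor levels was not tested. The co-receptor Nrp1 (ENSMUSG00000025810, chr8:128358604-128503363, plus strand) averaged 4.79 ± 0.57 CPM in reporter-positive and 4.50 ± 0.90 CPM in reporter-negative cells (SD, n = 3 each). Nrp2 (ENSMUSG00000025969, chr1:62703285-62818695, plus strand) averaged 76.2 ± 2.46 CPM in reporter-positive and 73.6 ± 10.5 CPM in reporter-negative cells (SD, n = 3 each). Their log2 differences of 0.09 ± 0.19 and 0.05 ± 0.11 were within the spread between replicates (edgeR adjusted p = 0.858 for Nrp1 and 0.851 for Nrp2).

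Leukocyte and macrophage markers summed to 35.8 to 120 CPM in reporter-positive and 29.9 to 87.1 CPM in reporter-negative carcinoma libraries, highest in replicate 2 of both groups, where Vegfa of reporter-positive cells, Pgf and Pdgfb were also highest. In the blocked fit 2 of these 12 markers were higher and 0 lower, and of 5 neutrophil markers tested 2 were higher, S100a8 and S100a9, which keratinocytes can also express. The part of these cells in the differences was not tested.

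Around these genes, genes of the same pathways were counted from lists. The unpaired test called none of the listed genes, and the counts that follow are those of the blocked fit, set beside 10.7% of all genes called higher and 7.34% called lower. CPM values are group means of reporter-positive and reporter-negative cells. Of 6 tested genes that process VEGF or PDGF precursors or free them from matrix, 4 were higher in reporter-positive cells and 0 lower. They were Pcsk6, a proprotein convertase (0.779 CPM in positive and 0.147 CPM in negative cells), Plau, urokinase (563 CPM in positive and 455 CPM in negative cells), Ccbe1, a cofactor of VEGF-C processing (1.31 CPM in positive and 0.603 CPM in negative cells), and Plat, tissue plasminogen activator (15.1 CPM in positive and 6.16 CPM in negative cells). Pcsk6 and Ccbe1 were near the low end of detection. Replicate 2 raised the positive mean of Plat, with 8.1, 29.2 and 7.96 CPM in positive replicates 1, 2 and 3, against 4.95, 7.56 and 5.98 CPM in negative ones. Of 18 hypoxia targets and regulators, 5 were higher and 0 lower, with a median log2 difference of 0.18 over the list. Among them were Ero1l (149 CPM in positive and 100 CPM in negative cells, groups overlapping), Pfkfb3, a glycolytic regulator (102 CPM in positive and 56.8 CPM in negative cells), and Ndrg1 (829 CPM in positive and 414 CPM in negative cells). The positive mean of Ndrg1 was also raised by replicate 2, with 547, 1390 and 547 CPM in positive replicates 1, 2 and 3, against 376, 485 and 380 CPM in negative ones. Of 11 other secreted angiogenesis factors, 2 were higher (Hbegf, 360 CPM in positive and 246 CPM in negative cells, and Adm, adrenomedullin, 135 CPM in positive and 78.9 CPM in negative cells) and 1 was lower (Timp3, 3.85 CPM in positive and 6.01 CPM in negative cells). Vegfd, a ligand of VEGFR-3, was lower at 6.98 CPM in positive and 10.7 CPM in negative cells, with the groups overlapping. It was the 1 call among 4 tested family genes. Among 9 semaphorins and plexins, Sema3e was lower at 3.46 CPM in positive and 4.81 CPM in negative cells. Angptl2 was the higher one among 5 angiopoietin and TIE genes, at 68.2 CPM in positive and 56.1 CPM in negative cells, with the groups overlapping.

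The second comparison set FceRIa-positive against FceRIa-negative macrophages sorted from such tumors. Nrp1 lay 3.17-fold and Nrp2 2.48-fold higher in the positive cells, the largest ratios among the 10 genes. Vegfb lay 1.99-fold higher and Flt1 at 0.451 of its level in negative cells, and Pdgfa and Pdgfb were higher at every replicate number. The unpaired edgeR test called none of the 9 genes tested, when it called 0% of 14988 genes, and Vegfc was too low to be tested. At an unadjusted p under 0.05 it passed 5 of the 9 genes and 2345 of all genes, and DESeq2 called 5 of them and 1263 genes in all. With the block, 7 of 9 were called (Vegfa, Vegfb, Nrp1, Nrp2, Pdgfa and Pdgfb higher, Flt1 lower), beside 21% of all genes, 10.8% higher and 10.2% lower; whether the members differ from other genes in this was not tested. The median log2 difference of the tested members with the block was 0.62, and that of all genes -0.004.

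Nrp1 had 228, 215 and 191 CPM in FceRIa-positive macrophages, against 60.8, 101 and 38.5 CPM in FceRIa-negative ones. The lowest positive library lay well above the highest negative one, and the negative libraries differed 2.62-fold among themselves. The means were 211 ± 19.1 CPM in positive and 66.6 ± 31.5 CPM in negative cells (SD, n = 3 each), a log2 difference of 1.67 ± 0.33 unpaired (edgeR adjusted p = 0.0682) and 1.77 ± 0.20 with the block (edgeR adjusted p = 0.000889). Nrp2 had 191, 149 and 183 CPM in FceRIa-positive macrophages, against 72.0, 74.7 and 64.0 CPM in FceRIa-negative ones. The spread within each group was small beside the gap between them. Its log2 difference was 1.31 ± 0.13 unpaired (edgeR adjusted p = 0.0585) and 1.31 ± 0.11 with the block (edgeR adjusted p = 0.000288). Both neuropilins and Vegfb kept their blocked calls when any 1 number was left out. Nrp1, Nrp2, Vegfb and Pdgfa were the 4 members with every FceRIa-positive library above every FceRIa-negative one, as in 11.6% of all genes.

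Among the ligands, Vegfb had 17.3, 11.1 and 18.5 CPM in FceRIa-positive macrophages, against 9.12, 6.14 and 8.26 CPM in FceRIa-negative ones. The groups did not overlap, and number 2 was the lowest in both. Its log2 difference was 1.0 ± 0.25 unpaired (edgeR adjusted p = 0.108) and 0.98 ± 0.11 with the block (edgeR adjusted p = 0.00094). Vegfa had 119, 27.1 and 111 CPM in FceRIa-positive macrophages, against 62.1, 10.7 and 108 CPM in FceRIa-negative ones. Number 2 was by far the lowest in both groups, the groups overlapped, and at number 3 the ratio was 1.03. The log2 difference was 0.51 ± 0.83 unpaired (edgeR adjusted p = 0.88) and 0.75 ± 0.21 with the block (edgeR adjusted p = 0.0364), and the blocked call was lost without number 1 (edgeR adjusted p = 0.264) or without number 2 (edgeR adjusted p = 0.0622). Unpaired, leaving out 1 library moved the difference between 0.02, without FceRIa-negative replicate 2, and 1.22, without FceRIa-negative replicate 3 (edgeR adjusted p = 0.991 and 0.822). The columns of number 2 carry the word New in the macrophage table, which the labels do not explain.

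Pgf had 60.6, 32.6 and 62.9 CPM in FceRIa-positive macrophages, against 54.5, 20.2 and 74.7 CPM in FceRIa-negative ones. Number 2 was again low in both, and no difference was called (log2 0.07 ± 0.47, edgeR adjusted p = 0.977; 0.19 ± 0.15 with the block, edgeR adjusted p = 0.431). Vegfc was at 4, 8 and 5 counts in FceRIa-positive and 2, 13 and 5 counts in FceRIa-negative libraries, too few to compare at this depth. Pdgfa had 36.8, 35.5 and 46.8 CPM in FceRIa-positive macrophages, against 26.6, 28.9 and 22.0 CPM in FceRIa-negative ones. The groups did not overlap, and the log2 difference was 0.62 ± 0.16 unpaired (edgeR adjusted p = 0.112) and 0.62 ± 0.14 with the block (edgeR adjusted p = 0.0179). Its antisense neighbor 6330403L08Rik had 348 to 483 counts in FceRIa-positive and 272 to 315 counts in FceRIa-negative libraries. Pdgfb had 63.1, 87.2 and 74.7 CPM in FceRIa-positive macrophages, against 50.1, 69.1 and 41.2 CPM in FceRIa-negative ones. Those groups overlapped, and the log2 difference was 0.49 ± 0.21 unpaired (edgeR adjusted p = 0.342) and 0.51 ± 0.11 with the block (edgeR adjusted p = 0.0144). Without number 1 the blocked calls of Pdgfa (edgeR adjusted p = 0.101), Pdgfb (0.0674) and Flt1 (0.0544) were lost.

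Of the signaling receptors, Flt1 was lower in FceRIa-positive macrophages with the block and Kdr was not called. Flt1 had 45, 40 and 26 counts in FceRIa-positive libraries, against 99, 112 and 60 counts in FceRIa-negative ones. The CPM values, 1.24, 1.09 and 0.766 in positive and 2.49, 2.60 and 1.78 in negative libraries, did not overlap, and the positive libraries were the lower ones, as in 9.78% of all genes. The log2 difference was -1.15 ± 0.31 unpaired (edgeR adjusted p = 0.133) and -1.15 ± 0.21 with the block (edgeR adjusted p = 0.00738). Kdr had 5.58, 5.87 and 7.40 CPM in FceRIa-positive macrophages, against 6.11, 7.77 and 9.12 CPM in FceRIa-negative ones. Its groups overlapped and neither fit called it (log2 -0.29 ± 0.22, edgeR adjusted p = 0.645; edgeR adjusted p = 0.166 with the block).

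**Figure D2:**
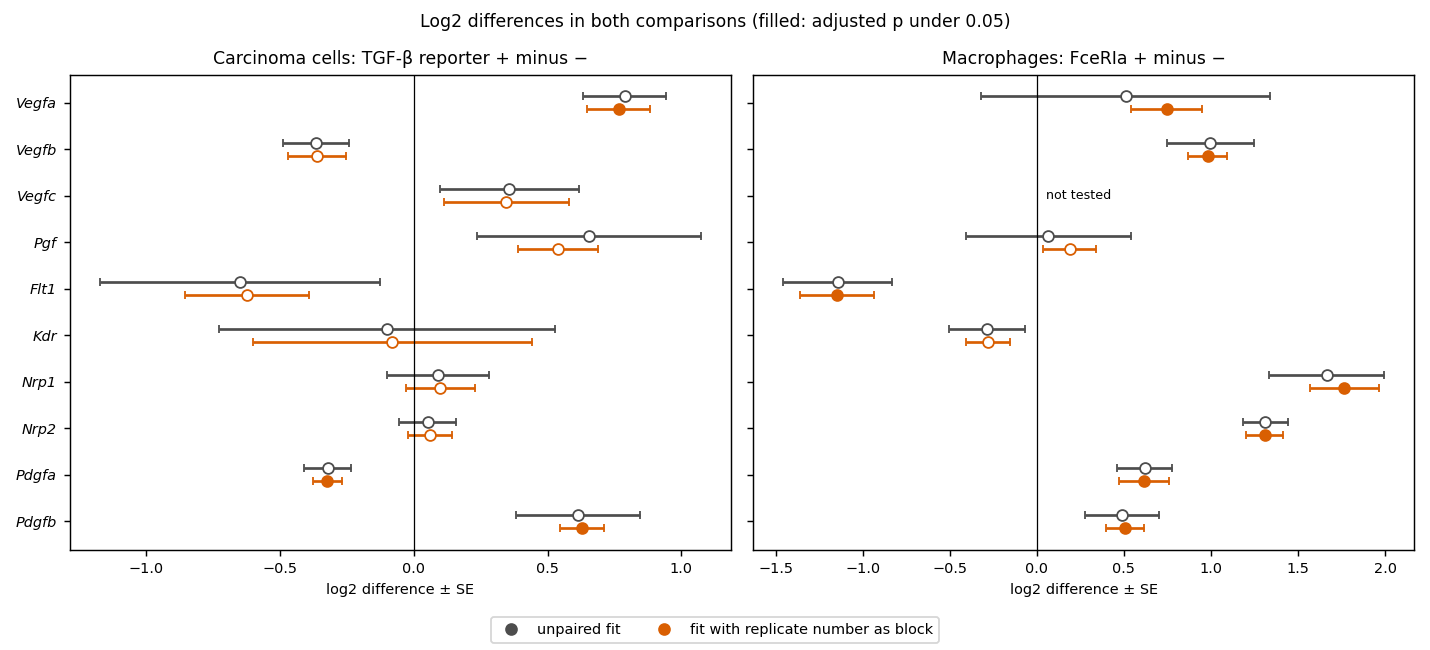
Log2 difference ± SE of each gene, reporter-positive minus reporter-negative carcinoma cells (left) and FceRIa-positive minus FceRIa-negative macrophages (right), from the unpaired and the blocked edgeR fits (6 libraries each). Filled points have an adjusted p under 0.05. No unpaired point is filled, and with the block 3 genes are filled on the left and 7 on the right. The horizontal axes of the panels differ.

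Markers of other cell types moved with the macrophage groups. The sum of 9 dendritic and Langerhans cell markers was 50.1 to 78.1 CPM in FceRIa-positive and 320 to 834 CPM in FceRIa-negative libraries, and in the blocked fit 6 of 8 tested were lower and 0 higher. The sum of 12 leukocyte and macrophage markers was 28800 to 31700 CPM in FceRIa-positive and 17300 to 21000 CPM in FceRIa-negative libraries, with 9 of 12 higher and 0 lower. The sum of 10 keratinocyte markers was 600 to 2150 CPM in FceRIa-positive and 2270 to 3760 CPM in FceRIa-negative libraries. Of these 10 markers 8 were lower, among them Epcam (31.1 CPM in positive and 306 CPM in negative cells), which is also on the dendritic list. Only Epcam and Cdh1 did not overlap between the groups, where 9.78% of all genes were lower without overlap. Cdh1 had 217, 140 and 306 CPM in positive replicates 1, 2 and 3, against 846, 547 and 1460 CPM in negative ones. Krt14 had 1190, 789 and 97.2 CPM in positive libraries, against 1710, 1240 and 129 CPM in negative ones. Of 5 neutrophil markers 4 were lower. Mast cell and basophil markers, cell types known for FceRIa, summed to 9.36 to 40.4 CPM in FceRIa-positive and 17.6 to 155 CPM in FceRIa-negative libraries, with 3 of 7 lower (Kit, Hdc and Mcpt8) and 0 higher. Hdc made up most of that sum at numbers 1 and 3, with 28.2, 3.41 and 32.3 CPM in positive and 60.1, 3.95 and 132 CPM in negative libraries. Cpa3, Mcpt4, Tpsb2 and Cma1 were at or under 1.1 CPM in every macrophage library. Lymphocyte markers summed to 0.972 to 1.56 CPM in FceRIa-positive and 1.40 to 7.97 CPM in FceRIa-negative libraries, with 1 of 2 tested lower. Fibroblast and pericyte markers summed to 99.9 to 268 CPM in FceRIa-positive and 132 to 163 CPM in FceRIa-negative libraries, with 1 of 12 higher and 1 lower. Endothelial markers summed to 59.9 to 94.3 CPM in FceRIa-positive and 48.2 to 69.2 CPM in FceRIa-negative libraries, where only Pecam1 of 9 tested was called (56.7 CPM in positive and 30.7 CPM in negative cells). Pecam1 made up much of that sum. Only 3 of the 9 had a positive log2 difference in the blocked fit, with a median of -0.37. No marker of the dendritic or leukocyte lists was at 0 in all 3 libraries of either macrophage group. The part of cell makeup in the differences of the neuropilins, Flt1 and the ligands was not tested.

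The wider family gave its largest value in Pdgfc, a further PDGF ligand, at 75.0 CPM in FceRIa-positive and 15.1 CPM in FceRIa-negative macrophages. Its log2 difference was 2.31 ± 0.35 unpaired (edgeR adjusted p = 0.0585) and 2.39 ± 0.19 with the block (edgeR adjusted p = 0.000255), the 1 call among 5 tested family genes. In the lists that follow the unpaired test called none, and the blocked counts stand beside 10.8% of all genes called higher and 10.2% called lower. Of 8 tested semaphorins and plexins 1 was higher and 1 lower, with the groups overlapping in both. Plxnd1, a semaphorin receptor, was higher at 458 CPM in positive and 348 CPM in negative cells. Sema3c, a neuropilin ligand, was lower at 1.54 CPM in positive and 2.70 CPM in negative cells. Sema3c had 10 counts in FceRIa-positive and 13 counts in FceRIa-negative number 3, and 134 to 251 CPM in carcinoma libraries. The part of keratinocyte RNA in its macrophage level was not tested. Of 14 other secreted angiogenesis factors 3 were higher, Hgf, Ang and Thbs1. Hgf (hepatocyte growth factor) was at 45.7 CPM in positive and 27.2 CPM in negative cells, with the groups overlapping. Ang (angiogenin) was at 11.1 CPM in positive and 5.43 CPM in negative cells. Thbs1 (thrombospondin 1, an inhibitor of angiogenesis) was at 80.7 CPM in positive and 36.9 CPM in negative cells. Thbs1 varied widely, with 164, 15.1 and 63.5 CPM in positive replicates 1, 2 and 3, against 55.2, 12.5 and 42.9 CPM in negative ones. Plau was higher among 5 precursor-processing genes (319 CPM in positive and 211 CPM in negative cells), and none of 6 angiopoietin and TIE genes was called. Of 18 hypoxia genes 6 were higher and 1 was lower. Among the higher ones were Bnip3 (36.8 CPM in positive and 23.5 CPM in negative cells, groups overlapping) and P4ha1 (192 CPM in positive and 145 CPM in negative cells). The lower one was Vhl, which encodes the subunit that targets HIF for degradation (68.6 CPM in positive and 90.1 CPM in negative cells).

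**Figure D3:**
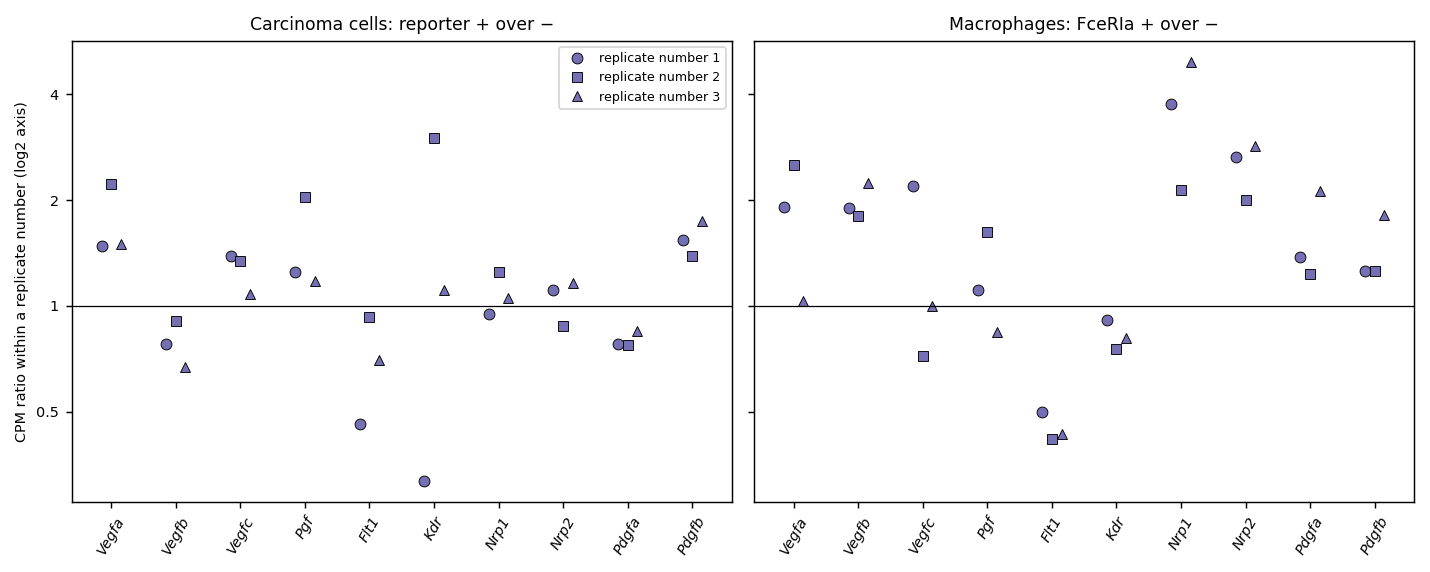
Ratio of CPM within each replicate number (log2 axis), reporter-positive over reporter-negative carcinoma cells (left) and FceRIa-positive over FceRIa-negative macrophages (right). Nrp1 ratios run from 2.14 to 4.96 and Nrp2 ratios from 2.0 to 2.86 in macrophages, and Vegfa ratios from 1.48 to 2.22 in carcinoma cells. Ratios of Kdr and Flt1 in carcinoma cells and of Vegfc in macrophages rest on few counts.

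Carcinoma cells and macrophages differed in 7 of the 10 genes, at a background of 78.8% of 16843 genes called (36.8% higher and 42% lower in carcinoma cells). Cell type, sort gate and count table cannot be told apart here, and the test used the sum of the 2 libraries of a number, 3 carcinoma sums against 3 macrophage sums. CPM values in the next sentences are means of those sums with their SD (n = 3 each). Vegfa was at 294 ± 41.8 CPM in carcinoma cells and 70.4 ± 45.7 CPM in macrophages (log2 difference 2.06 ± 0.59, edgeR adjusted p = 0.0165). Pdgfa was at 55.7 ± 4.71 CPM in carcinoma cells and 32.1 ± 0.81 CPM in macrophages (0.80 ± 0.09, edgeR adjusted p = 0.000262). Vegfc was low in both, at 0.804 ± 0.13 CPM in carcinoma cells and 0.162 ± 0.10 CPM in macrophages (2.30 ± 0.45, edgeR adjusted p = 0.00323). These 3 ligands were higher in carcinoma cells. The other 4 calls were lower in carcinoma cells, with Nrp1 furthest apart at 4.72 ± 0.74 CPM in carcinoma cells and 134 ± 23.0 CPM in macrophages (-4.83 ± 0.20, edgeR adjusted p = 6.03e-06). Kdr was at 0.727 ± 0.29 CPM in carcinoma cells and 6.87 ± 1.03 CPM in macrophages (-3.24 ± 0.34, edgeR adjusted p = 0.000188). Pdgfb was at 20.5 ± 4.84 CPM in carcinoma cells and 63.0 ± 13 CPM in macrophages (-1.62 ± 0.22, edgeR adjusted p = 0.000545), and Nrp2 at 75.9 ± 4.99 CPM in carcinoma cells and 118 ± 8.88 CPM in macrophages (-0.64 ± 0.10, edgeR adjusted p = 0.000865). In these sums the ligands Vegfa and Pdgfa thus stood on one side, and Pdgfb with the receptors Kdr, Nrp1 and Nrp2 on the other. For Nrp2 the difference lay in the FceRIa-positive macrophages. Per kilobase of exon (RPKM), Nrp2 was at 12.2 to 15.6 in FceRIa-positive and 5.22 to 6.17 in FceRIa-negative macrophages. It was at 6.44 to 6.85 RPKM in reporter-positive and 5.59 to 7.40 RPKM in reporter-negative carcinoma cells. Vegfb, Pgf and Flt1 were not called (edgeR adjusted p = 0.369, 0.471 and 0.767). The sums of the 7 genes also did not overlap between the cell types, nor did those of 83.4% of all genes (38.9% higher and 44.5% lower in carcinoma cells). The median of all genes was shifted by -0.123 on the log2 scale, so small differences are read against that shift.

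Further genes of the pathway separated the cell types widely. Pdgfc was at 0.519 CPM in carcinoma cells and 43.2 CPM in macrophages (log2 -6.38 ± 0.38, edgeR adjusted p = 2.13e-05), while Vegfd was at 9.10 CPM in carcinoma cells and 0.237 CPM in macrophages (5.24 ± 0.82, edgeR adjusted p = 0.00111). The PDGF receptor genes Pdgfra (6.70 CPM in carcinoma cells and 1.30 CPM in macrophages) and Pdgfrb (1.03 CPM in carcinoma cells and 11.2 CPM in macrophages) were called in opposite directions. Of 10 semaphorins and plexins 7 were higher in carcinoma cells and 1, Plxnd1, lower (4.01 CPM in carcinoma cells and 393 CPM in macrophages). The anti-angiogenic Vash1 (0.235 CPM in carcinoma cells and 37.1 CPM in macrophages) and Hgf (0.0866 CPM in carcinoma cells and 35.7 CPM in macrophages) were lower and the matrix protein gene Sparc (843 CPM in carcinoma cells and 33.2 CPM in macrophages) higher in carcinoma cells, among 7 higher and 4 lower of 14 other secreted factors. Of 18 hypoxia genes 14 were higher and 3 lower, with Ldha at 3190 CPM in carcinoma cells and 830 CPM in macrophages and Vhl at 20.4 CPM in carcinoma cells and 78.4 CPM in macrophages.

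Levels between genes were compared per kilobase of exon (RPKM). In reporter-positive carcinoma cells Vegfa stood first at 89.3 ± 21.7 RPKM, followed by Pgf at 27.4 ± 16.9 and Pdgfa at 16.0 ± 1.21 RPKM, each above the next in all libraries. Nrp2, Pdgfb and Vegfb followed at 6.63, 6.12 and 5.39 RPKM, where Pdgfb overlapped both of the others. Nrp1 was at 0.504, Vegfc at 0.375, Flt1 at 0.106 and Kdr at 0.0786 RPKM, where Flt1 and Kdr overlapped. Reporter-negative carcinoma cells had Vegfa first at 51.3 ± 0.50 RPKM, then Pdgfa at 19.9 and Pgf at 17.2 RPKM, which overlapped. There Vegfb was at 6.91, Nrp2 at 6.37, Pdgfb at 3.98, Nrp1 at 0.471, Vegfc at 0.292, Flt1 at 0.165 and Kdr at 0.0827 RPKM. In FceRIa-positive macrophages 7 genes formed a run of overlapping neighbors, Nrp1 at 20.9, Vegfa at 19.4, Pdgfb at 17.5, Pgf at 17.4, Nrp2 at 14.3, Pdgfa at 12.3 and Vegfb at 9.44 RPKM. In FceRIa-negative macrophages the order was Pgf at 16.7, Vegfa at 13.7, Pdgfb at 12.6, Pdgfa at 8.10, Nrp1 at 6.67, Nrp2 at 5.80 and Vegfb at 4.78 RPKM. Nrp1 thus ranked 1 of the 10 in FceRIa-positive and 5 of the 10 in FceRIa-negative macrophages, though most neighbors overlapped. The last places were held by Kdr (0.674 RPKM), Flt1 (0.0741 RPKM) and Vegfc (0.0628 RPKM) in FceRIa-positive macrophages, and by Kdr (0.828 RPKM), Flt1 (0.166 RPKM) and Vegfc (0.0665 RPKM) in FceRIa-negative ones.

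**Figure D4:**
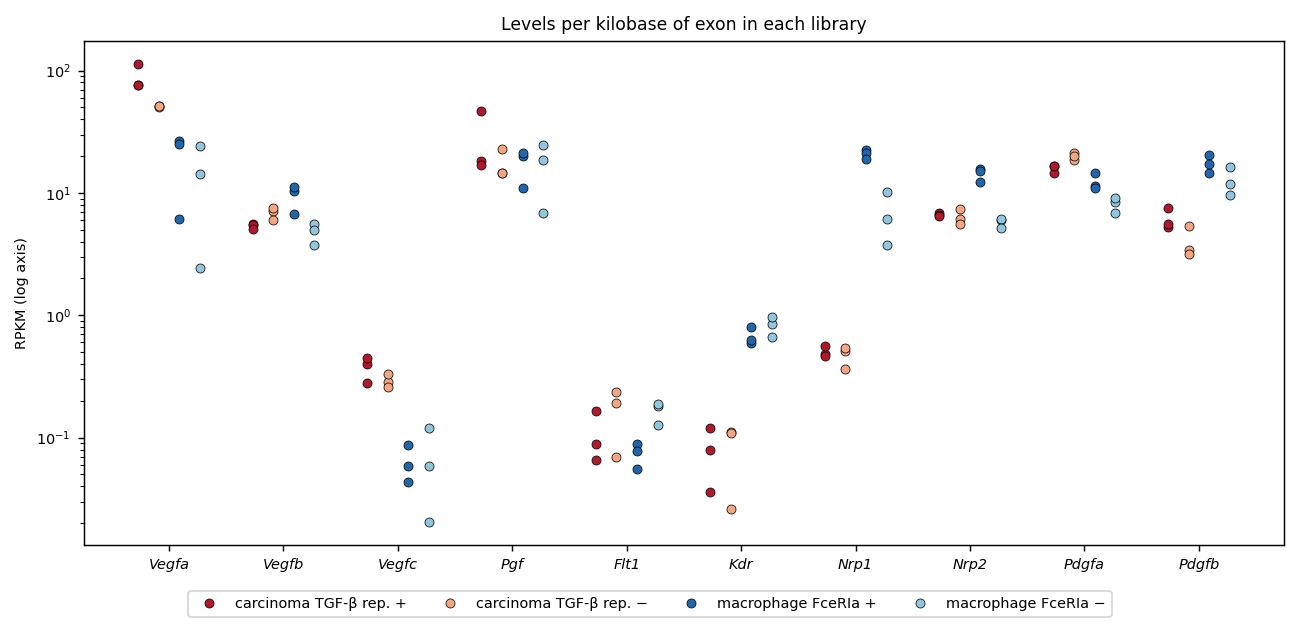
RPKM of the 10 genes in each of the 12 libraries on a log axis, with library sizes scaled over both tables. Vegfa is highest in carcinoma cells (50.7 to 114 RPKM), and Nrp1 lies at 0.365 to 0.566 RPKM in carcinoma cells and 3.79 to 22.5 RPKM in macrophages. Kdr, Flt1 and Vegfc stay under 1 RPKM in every library.

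Genes whose pattern over the 12 libraries was nearest to that of a member were sought among 10368 genes by the root mean square (RMS) difference of centred log2 CPM. The likeness is mostly set by the cell types and the libraries they share, so it is a description. For Vegfa the nearest were Klf4 (RMS 0.333 on the log2 scale, where Vegfa itself had an SD of 1.58), Tnfrsf23 (0.505) and Plk2 (0.561). For Nrp1 they included Rgl1 (0.23, with an SD of 2.35 for Nrp1) and C4b (0.369). Those of Nrp2 were Plekha8 (0.168, with an SD of 0.55 for Nrp2), Wwp1 (0.194) and BC022687 (0.204), and those of Pdgfb were Aga (0.169, with an SD of 0.90 for Pdgfb), Pgap1 (0.201) and Qsox1 (0.212).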

How the data were processed

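Per the labels' protocols, RNA of sorted cells was extracted with Trizol and 100 ng of it made into TruSeq v2 libraries. The values are raw read counts per gene, deposited by the authors in 1 table per cell type. The submitters' processing notes name FastQC, STAR, mm10 and GRCm38, with no versions. The counter, its strand setting and the annotation used were not given in the sources used here. Each table has 53801 gene rows, 0 of them without a gene, and 53620 IDs were found in GENCODE M21 (GRCm38), which gave coordinates and exon lengths. The 4 count columns that belong to no sample here were not used.

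Sample titles gave groups and replicate numbers. The test was that of edgeR 4.0.16 under R 4.3.3 (TMM scaling, filterByExpr with a minimum count of 10, quasi-likelihood test, Benjamini-Hochberg adjustment over all genes tested, threshold 0.05), after checks on simulated data. Each comparison used its own 6 libraries, and carcinoma cells were set against macrophages on sums over each number. Log2 differences are positive minus negative, or carcinoma minus macrophage. CPM used TMM library sizes within a table, and RPKM those over all 12 libraries. DESeq2 1.42.0, other scalings, no filter, left-out libraries and the replicate number as a block were alternatives.

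Whether the numbers pair the samples was decided from the data. Deviations from group means correlated at 0.597, 0.742 and 0.588 between carcinoma libraries of the same number and at 0.738, 0.845 and 0.763 between macrophage libraries, all over 0.1. Carcinoma numbers 1 and 3 also correlated across (0.593 and 0.606), so each is not shown to be a pair.

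The 10 genes and all lists were chosen with earlier results of these data known. Named genes are the 10 members, from each list up to 4 with the smallest p of the blocked fit (for the cell types, of the unpaired fit on sums), and the 3 nearest in pattern to Vegfa, Nrp1, Nrp2 and Pdgfb among genes of at least 5 CPM on average, with a pseudocount of 1 CPM; 1 of these genes is not reported here.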

Additional observations from a re-analysis of the deposited data

How the results depend on the processing

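The number of genes called depended on the fit. With DESeq2, with no filter on low counts, with the replicate block and with that block in DESeq2, 1163, 209, 2449 and 1687 genes were called in carcinoma cells, of them 2, 1, 3 and 3 of the 10 members, against 110 and 0 in the unpaired edgeR fit. In macrophages the same settings called 1263, 623, 3142 and 2807 genes, and 5, 2, 7 and 6 members, against 0 and 0. Leaving out 1 library unpaired gave 0 to 621 genes and 0 to 1 members in carcinoma cells, and 0 to 2 genes and 0 members in macrophages. Without carcinoma reporter-positive replicate 2, 621 genes and Vegfa were called. The block without 1 number gave 1143 to 5729 genes and 3 to 7 members in carcinoma cells, and 1317 to 3349 genes and 3 to 8 members in macrophages, with 1553 genes without number 1 in carcinoma cells and 2672 without number 2 in macrophages, and the most without number 2 in carcinoma cells and without number 3 in macrophages. With carcinoma replicates 1 and 3 summed, 0 genes were called. The cause was not tested. The 7 calls between carcinoma cells and macrophages held in every alternative run.

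Over 405 alternatives for single members, 325 kept direction and side of the threshold, 62 came past it and 18 changed sign. The sign changes were in Kdr, Nrp1 and Nrp2 in carcinoma cells, Pgf in macrophages, and Pgf and Flt1 between cell types. Of these members, 2 were called higher in 1 alternative each, Nrp2 in carcinoma cells with the block without number 2 (0.177) and Pgf in macrophages with the block without number 3 (0.414). With 1 library left out, the unpaired log2 differences in carcinoma cells ran from -0.55 to 0.251 for Kdr, from -0.07 to 0.20 for Nrp1 and from -0.035 to 0.164 for Nrp2. Those of Pgf in macrophages ran from -0.303 to 0.465. Between cell types, with 1 number of a cell type left out, Pgf ran from -0.037 to 0.63 and Flt1 from -0.161 to 0.556. With the block, Kdr became 0.642 without number 1, Nrp1 -0.005 without number 2 and Nrp2 -0.016 without number 3 in carcinoma cells, and Pgf -0.049 without number 2 in macrophages. With carcinoma replicates 1 and 3 summed, Kdr became 0.105 and Nrp2 -0.009. The cause was not tested. Vegfc in macrophages and Flt1 and Kdr in carcinoma cells are limited by few counts, and the blocked fits leave 2 residual degrees of freedom, against 4 unpaired.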
